A study of Mus musculus with 8 samples.

Results

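miR-221 and miR-222 are a pair of microRNAs (miRNAs) made from neighbouring hairpins on the X chromosome. They were followed here in mouse kidney after ureteral obstruction through the 3 array entries named mmu-miR-221-3p, mmu-miR-221-5p and mmu-miR-222-3p (mmu for mouse, left out below), chosen by name and read by 6 of the 4415 mouse probes, out of 1881 mouse miRNAs on the array. Kidneys were taken on day 7, either after one ureter had been obstructed (unilateral ureteral obstruction, UUO; 4 samples, numbered 1 to 4) or after sham surgery (Sham; 4 samples, numbered 1, 2, 3 and 8). Both groups were male C57BL/6 mice, 8 weeks old, with no other treatment or allele given in the labels. Each sample was whole kidney tissue on 1 Agilent 1-colour array, and the labels do not say in words that each sample was a separate mouse, so p-values measure the spread between these samples. In whole tissue, fewer cells of a type and less RNA per cell cannot be told apart.

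A miRNA is cut from a hairpin precursor and guides silencing of mRNAs that pair with its seed, bases 2 to 8 of the mature strand. miR-221-3p and miR-222-3p share their seed and are known to repress the cell cycle inhibitors Cdkn1b and Cdkn1c and the receptor tyrosine kinase Kit. They are best known for promoting proliferation of vascular smooth muscle and tumour cells and for restraining Kit signalling in endothelial cells. miR-221-5p comes from the other arm of the miR-221 hairpin.

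The mature sequences are shown because the 2 3p strands carry the same seed but differ, counted without gaps, over much of the stretch the array probes read. They are from RefSeq (GRCm38.p6), with the seed in capitals, and all but miR-1928 lie on the minus strand of chromosome X. miR-1928, on chromosome 1, is the remaining mature miRNA with this seed among the 1679 mature names in the RefSeq table.
miR-221-3p: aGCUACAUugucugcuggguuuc
miR-222-3p: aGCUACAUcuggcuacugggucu
miR-221-5p: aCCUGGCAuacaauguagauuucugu
miR-1928: aGCUACAUugccagcuc
miR-221-3p and miR-222-3p shared their first 8 bases and differed at 12 of 23 positions, counted from the 5′ end without gaps. miR-1928 shared its first 10 bases with miR-221-3p. miR-221-3p, miR-222-3p and miR-1928 hold the seed GCUACAU, and miR-221-5p does not.

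The hairpins are shown to place the arms, with the listed mature strands in capitals. In GRCm38.p6 Mir221 lies at chrX:19146294-19146388 and Mir222 at chrX:19146893-19146971, both on the minus strand, with 504 bases between them. No RefSeq gene overlapped the hairpins or the stretch between them, so their position is intergenic in that annotation. The next listed genes were the pseudogene Gm5383 on the side of Mir221 and the lncRNA Gm14636 on the side of Mir222.
Mir221: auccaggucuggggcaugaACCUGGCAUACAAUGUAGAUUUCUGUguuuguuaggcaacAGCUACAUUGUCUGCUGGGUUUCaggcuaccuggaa
Mir222: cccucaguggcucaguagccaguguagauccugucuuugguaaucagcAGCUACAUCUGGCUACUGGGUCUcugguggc

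Each entry had 2 probes that start at the same base and differ in length by 1 base. The probes are written 5′ to 3′ as DNA and pair with the miRNA in reverse.
miR-221-3p longer probe: gaaacccagcagacaatgta
miR-221-3p shorter probe: gaaacccagcagacaatgt
miR-222-3p longer probe: acccagtagccaga
miR-222-3p shorter probe: acccagtagccag
miR-221-5p longer probe: acagaaatctacattgtatgc
miR-221-5p shorter probe: acagaaatctacattgtatg
The files list the longer probes at chrX:18723483-18723501 (miR-221-3p), chrX:18724075-18724087 (miR-222-3p) and chrX:18723445-18723464 (miR-221-5p) in mm9, on the minus strand, each listed span being 1 base shorter than its probe. The longer miR-221-3p probe pairs with bases 4 to 23 of the RefSeq strand, up to its 3′ end. The longer miR-222-3p probe is 14 bases long and pairs with bases 8 to 21, which leaves the last 2 bases of the RefSeq strand uncovered. Both miR-222-3p probes therefore read mostly beyond the shared first 8 bases, where the strands differ at many positions counted without gaps. The probes of both 3p strands nevertheless hold the run acccag, and aligned on that run they match at further bases beyond it. The count without gaps therefore understates how alike the probed stretches are. Cross-hybridisation was not tested.

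Signal at the 75th percentile of detected probes lay at 435 to 482 intensity units in UUO arrays and 394 to 413 in Sham arrays, and 740 to 800 probes were detected in UUO and 720 to 754 in Sham. No spot was saturated. All arrays shared 1 slide, with UUO in one row and Sham in the other, so array row and group cannot be told apart. The kidney tubule markers miR-192-5p and miR-194-5p were detected on all 8 arrays.

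miR-222-3p, which represses Cdkn1b and Kit, was slightly higher in UUO kidneys with the scaling used here, and lower with quantile normalization (log2 fold change −0.21). Before scaling, its longer and brighter probe read 179, 159, 148 and 150 intensity units in UUO 1 to 4, against 119, 117, 115 and 121 in Sham 1, 2, 3 and 8. The lowest UUO array lay above the highest Sham array, so the groups did not overlap. Each array was then divided by its own 75th percentile and put on the log2 scale, which gave −1.55 ± 0.13 in UUO and −1.78 ± 0.03 in Sham (SD, n = 4 each). The groups still did not overlap, with −1.68 to −1.43 in UUO and −1.81 to −1.75 in Sham. UUO 1 and 2 were the higher pair within the UUO group.

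The scaled change of miR-222-3p was 1.17-fold (log2 fold change 0.23 ± 0.07 (SE), 95% interval 0.07 to 0.38, limma adjusted p = 0.0159 over the 408 miRNAs tested, n = 4 per group). A call was made at an adjusted p under 0.05. Of all tested miRNAs 39.7% were called higher, 27.7% lower and 67.4% in either direction, so 1 of the 2 testable strands being called higher is near the background. Its shorter probe moved alike, with 120, 105, 102 and 102 intensity units in UUO 1 to 4, against 82.8, 78.2, 74.6 and 79.4 in Sham 1, 2, 3 and 8. On the scaled log2 values that probe changed by 0.25 ± 0.06 (SE, adjusted p = 0.00770 over the 771 probes tested, of which 41.1% were called higher and 68.4% in either direction).

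miR-221-3p, which carries the same seed, did not pass the test for a difference between the groups with this scaling. Its longer and brighter probe read 563, 511, 513 and 503 intensity units in UUO 1 to 4, against 476, 458, 491 and 496 in Sham 1, 2, 3 and 8. These unscaled values did not overlap. The 75th percentile of the array was 482 in UUO 1, the highest UUO reading, and 481 in UUO 4, the lowest. After scaling, the log2 signal was 0.17 ± 0.08 in UUO and 0.24 ± 0.04 in Sham (SD, n = 4 each). The scaled ranges overlapped, at 0.06 to 0.23 in UUO and 0.21 to 0.28 in Sham, with UUO 4 lowest.

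The log2 fold change of miR-221-3p was −0.07 ± 0.05 (SE, limma adjusted p = 0.239). Its 95% interval ran from −0.19 to 0.05, so changes further from 0 than these bounds lie outside it with this scaling. The shorter probe gave −0.09 ± 0.05 (SE, adjusted p = 0.139), although its scaled ranges did not overlap, at −0.43 to −0.25 in UUO and −0.24 to −0.21 in Sham. Scaled ranges did not overlap for 61.3% of tested miRNAs and 62.4% of tested probes.

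miR-221-5p, the other arm of the miR-221 hairpin, was not well above background on any of the 8 arrays. Its longer probe read 2.89, 2.53, 2.59 and 2.27 intensity units in UUO 1 to 4, against 1.15, 1.55, 1.43 and 2.11 in Sham 1, 2, 3 and 8, while the lowest signal of any detected probe was 11.9 to 13.3 units, depending on the array. The shorter probe lay between −1.70 and 1.24 units over all arrays. No fold change is given for it. miR-222-5p and miR-1928, neither of which belongs to the 3 entries, were likewise not well above background on any array, at −1.10 to 6.58 and −2.09 to 0.50 units. Of the seed family only the 3p strands of miR-221 and miR-222 were measurable here.

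**Figure D1:**
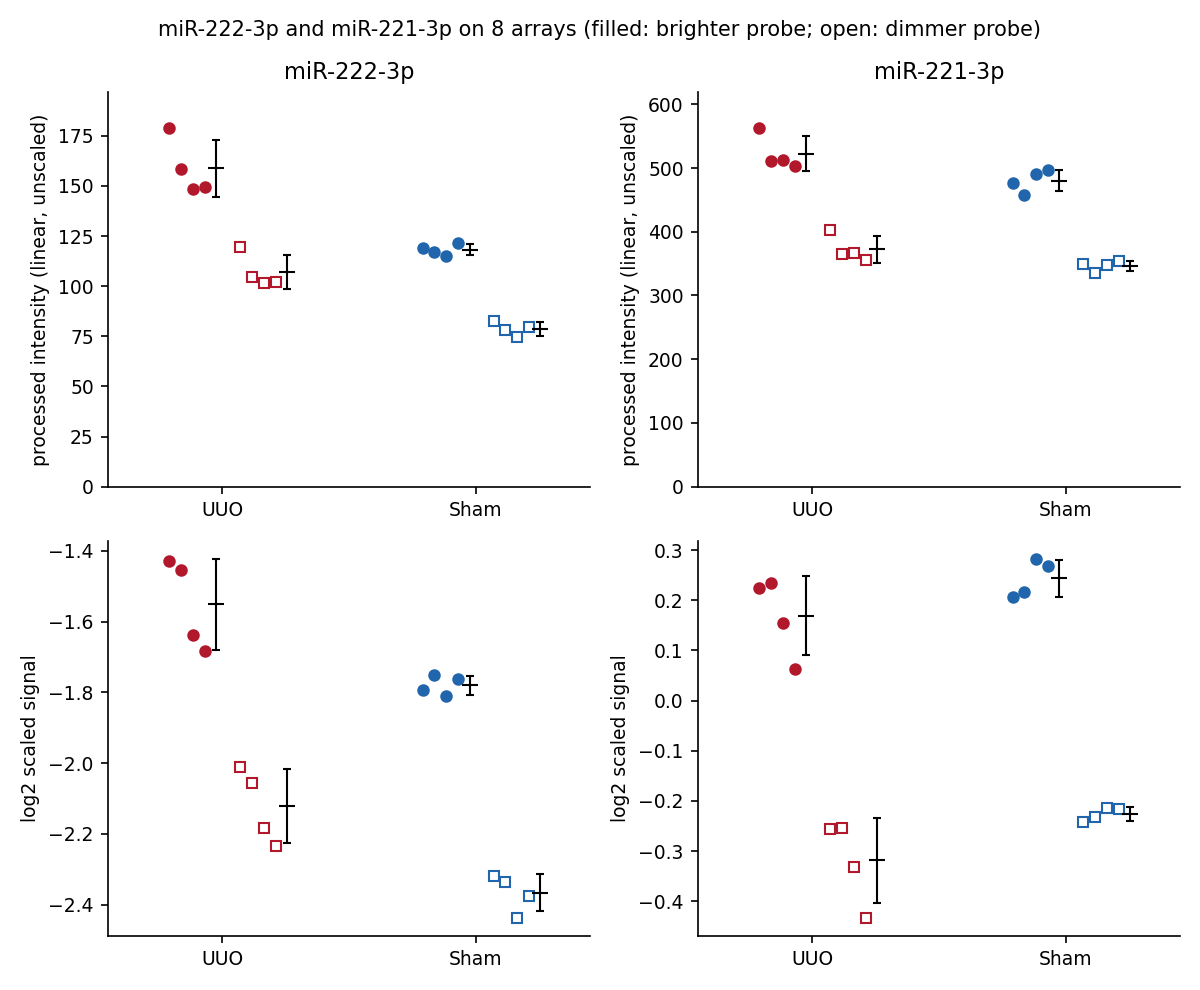
Signal of miR-222-3p (left) and miR-221-3p (right) in UUO and Sham kidneys, as processed intensity before scaling (top, linear units, axes from 0) and as log2 signal after scaling (bottom, axes not from 0). Points are arrays, filled for the brighter and open for the dimmer probe, and bars are mean ± SD of 4 arrays. The UUO and Sham points of miR-222-3p are apart in both rows, whereas those of the brighter miR-221-3p probe overlap after scaling.

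Repeat spots within an array varied little, which leaves out any error between arrays. Each value averaged 12 to 15 spots, and the spots of 1 array varied by 2.08 to 3.92% (coefficient of variation) for miR-221-3p and by 1.82 to 9.24% for the dimmer miR-222-3p. Spots of an array are repeat readings of 1 sample and were not counted as replicates.

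Relative to miR-221-3p, miR-222-3p was higher in UUO than in Sham arrays with the scaling used here, but not with quantile normalization. Within an array, any factor that scales the whole array cancels from the log2 difference between the miRNAs, so settings that differ only by such a factor give the same value. For the brighter probes this difference, miR-222-3p minus miR-221-3p, was −1.65, −1.69, −1.79 and −1.75 in UUO 1 to 4, against −2.00, −1.97, −2.09 and −2.03 in Sham 1, 2, 3 and 8. All 4 UUO arrays lay above all 4 Sham arrays. The level of the difference reflects the probes and is not a comparison of abundance, and only its shift between groups was compared.

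The shift was 0.30 ± 0.04 (SE) on the log2 scale, from −1.72 ± 0.06 in UUO and −2.02 ± 0.05 in Sham (SD, n = 4 each). The fold change of miR-222-3p was thus 1.23 times that of miR-221-3p. The exact permutation test over the 70 splits of the arrays gave p = 0.0286 (2-sided), the smallest it can give with 4 against 4. The differences that involve miR-221-5p have no value, so this was the only pair of members tested. All 4 pairings of a miR-222-3p probe with a miR-221-3p probe gave shifts of 0.30 to 0.34 with no overlap between the groups. These pairings share arrays and probes and are not independent. Over all 83028 pairs of tested miRNAs, 74.7% had log2 fold changes that differed by at least 0.30, so a shift of this size was common. How many of those pairs separated the groups was not counted. The shift was 0.32 with total intensity, 0.19 with normexp background correction and −0.079 ± 0.03 (SE) with quantile normalization, where the groups overlapped.

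**Figure D2:**
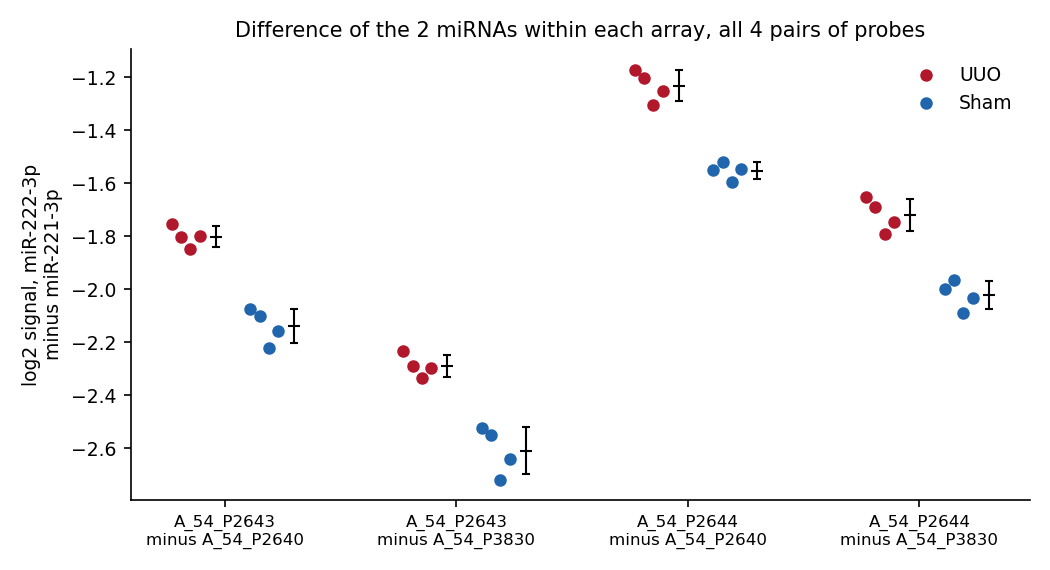
Log2 signal of miR-222-3p minus that of miR-221-3p within each array, for the 4 pairings of their probes, in UUO (red) and Sham (blue). Points are arrays and bars are mean ± SD of 4 arrays. In each pairing all UUO points lie above all Sham points, with shifts of 0.30 to 0.34.

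Other miRNAs of like brightness are given as a scale for the shift. The 39 other tested miRNAs within 0.5 log2 units of the mean signal of miR-222-3p had a median log2 fold change of 0.25 (quartiles 0.06 and 0.82). The 30 within 0.5 units of miR-221-3p, which gave brighter spots, had a median of 0.04 (quartiles −0.39 and 0.53). These medians differ by 0.21, against 0.30 for the pair itself. What part brightness had in the shift of the pair was not tested.

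**Figure D3:**
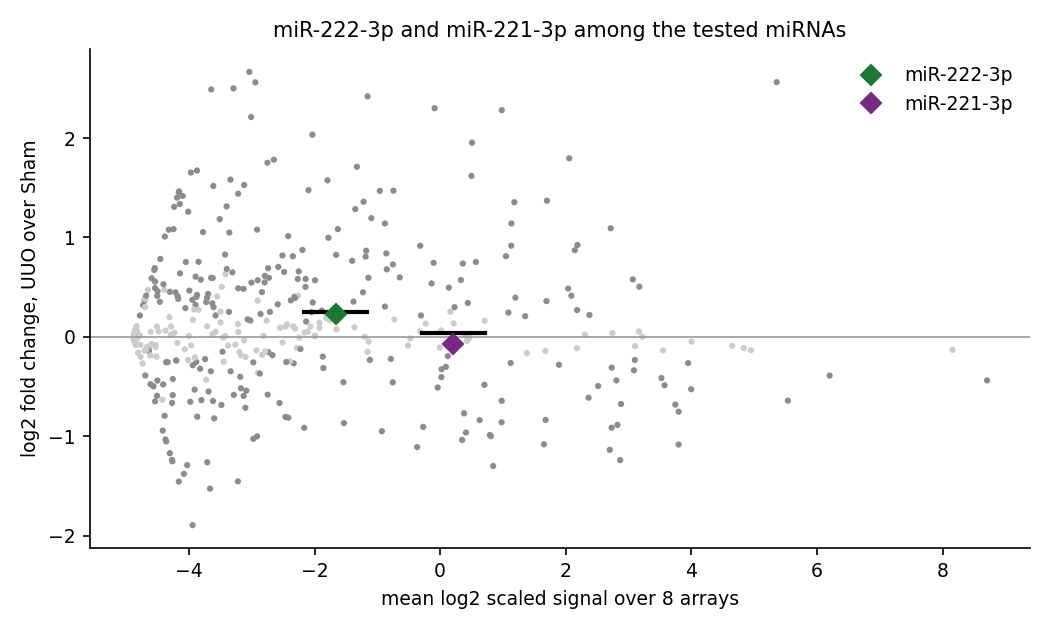
Log2 fold change (UUO over Sham) against mean log2 scaled signal over 8 arrays for the 408 tested miRNAs (dark grey called, light grey not called), with miR-222-3p and miR-221-3p as diamonds (bars: SE, within the symbols). Black lines are the medians of the other miRNAs within 0.5 log2 units of each, 0.25 and 0.04.

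The direction of each miRNA alone depended on how arrays were scaled. The 8 settings were the percentile over probes detected on all arrays (used above), the percentile over all probes, no scaling, quantile normalization, scaling to the dmr control spots, normexp background correction, total intensity per miRNA, and the authors' deposited ratios. Over these the log2 fold change of miR-222-3p ran from −0.21 to 0.56, and it was called higher in 4, lower in 1 and not called in 3. For miR-221-3p it ran from −0.42 to 0.26, with 1 call higher, 3 lower and 4 without a call. The median of all tested miRNAs moved too, from −0.23 to 0.39. Relative to that median, miR-221-3p was below in all 8 settings, by 0.04 to 0.19, and miR-222-3p was above in 7, by 0.13 to 0.17, and below by 0.18 with quantile normalization. A factor per array shifts the miRNA and the median nearly alike, so these settings are not independent.

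**Figure D4:**
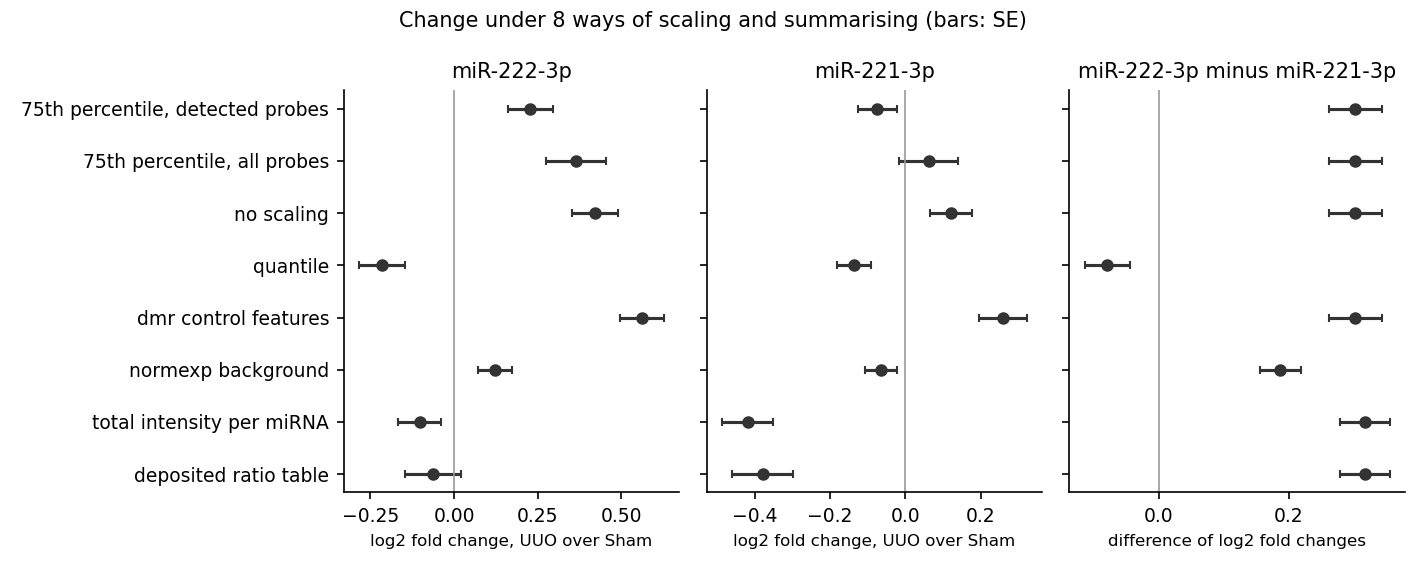
Log2 fold change (UUO over Sham) of miR-222-3p and of miR-221-3p and the difference between these changes, under 8 ways of scaling and summarising (points with SE). The single changes lie on both sides of 0, and the difference takes 3 distinct values above 0 (0.19, 0.30 and 0.32), since a factor per array cancels from it, and −0.079 with quantile normalization.

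The miRNAs most like each in pattern were found by the root mean square difference of log2 signals over the 8 arrays, after centring each on its own mean. Among the 407 others, those nearest to miR-221-3p were miR-500-3p, let-7d-5p, miR-1839-5p, miR-103-3p and miR-140-5p, at 0.0269 to 0.0446. Their own log2 fold changes were −0.14 to −0.05, and of these 5 miR-1839-5p was called lower (−0.12 ± 0.05, SE, adjusted p = 0.0418). Those nearest to miR-222-3p were miR-15a-5p, miR-340-5p, miR-3069-3p, miR-484 and miR-195a-5p, at 0.0395 to 0.0611. Their changes were 0.21 to 0.30, and miR-15a-5p, a cell cycle inhibitor, was closest (0.22 ± 0.05, adjusted p = 0.00733). The pair itself differed by 0.159, which made miR-222-3p the 103rd nearest to miR-221-3p and miR-221-3p the 84th nearest to miR-222-3p.

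Pairs of tested miRNAs from neighbouring hairpins give another scale. The probe positions give 50 pairs of differently named tested miRNAs lying 100 to 10000 bases apart on the same strand, and their log2 fold changes differed by a median of 0.20. In 20 of these 50 pairs, the pair miR-221-3p and miR-222-3p included, the difference was at least as large as the 0.30 seen here. Over all 83028 pairs of tested miRNAs the median difference was 0.65, and 74.7% of them differed by at least 0.30. Several pairs share a cluster, so they are not independent.

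Of the 21 tested miRNAs with a chromosome X probe, 6 were higher, 5 lower and 10 not called, against 39.7% higher and 27.7% lower over all 408. Their median log2 fold change was −0.02, against 0.06 over all 408. miR-223-3p, a myeloid miRNA, changed most (2.30 ± 0.07, SE, adjusted p = 3.69e-08). miR-504-3p was second and was called lower (adjusted p = 0.0119), at the floor of −4.89 (log2) on all 4 UUO arrays and at −4.81 to −3.19 in Sham arrays. miR-224-5p was the third and was called higher (adjusted p = 1.04e-06), at −3.86 to −3.67 in UUO arrays and −4.89 to −4.77 in Sham arrays. No fold is given for these, since values at the floor are only a bound. The changes of miR-222-3p (0.23) and miR-221-3p (−0.07) ranked 11th and 16th by size among the 21.

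Other miRNAs linked to the cell cycle were measured beside the pair, and each list is set against the 39.7% of all tested miRNAs called higher and the 27.7% called lower. The miR-17-92 cluster and its paralogs promote proliferation. All 10 tested strands listed here rose, with a median log2 fold change of 0.74 against 0.06 for all tested. Over the 8 settings 8 to 10 of them rose. The list does not hold every tested strand of these clusters. Outside it, miR-17-3p and miR-20a-3p were called higher and miR-106b-3p was not called. miR-18a-5p rose by 1.75 ± 0.06, miR-19a-3p by 0.84 ± 0.07 and miR-20a-5p by 0.81 ± 0.05 (log2 ± SE). Among the miR-15, miR-16 and miR-34 miRNAs, which restrain the cell cycle, 8 of 10 rose and 2 were not called (median 0.37, against 0.06 over all tested), but 3 to 9 rose and 0 to 2 fell over the settings. miR-34c-5p rose by 1.18 ± 0.07, miR-15b-5p by 0.92 ± 0.05 and miR-34b-5p by 0.82 ± 0.09.

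The transcription factors NF-κB and AP-1 are reported to drive miR-221 and miR-222 in other cells. Of 7 miRNAs listed here as responsive to NF-κB or AP-1, 6 rose and 1, miR-212-3p (−0.41 ± 0.07), fell (median 2.50). The number that rose was 6 in each of the 8 settings, while the median ran from 0.98 to 2.80 over them. One of the 7, miR-155-5p, is also counted among the leukocyte miRNAs. The median of 2.50 is that of miR-21a-3p, which was detected on 2 of the 4 Sham arrays. miR-146b-5p rose by 2.66 ± 0.07, miR-21a-5p by 2.56 ± 0.04 and miR-132-3p by 2.56 ± 0.07. In Sham arrays the mean log2 signals of miR-146b-5p (−4.37) and miR-132-3p (−4.22) lay not far above the floor of −4.89. Of the vascular and smooth muscle miRNAs, from cell types in which miR-221 and miR-222 are best studied, 2 of 5 rose, 1 fell and 2 were not called (median −0.14), which is near the background of 39.7% higher and 27.7% lower. The 2 that rose were miR-143-3p (0.24 ± 0.07) and miR-143-5p, whose fold is not given because Sham arrays were at the floor, and the 1 that fell was miR-126a-5p (−0.22 ± 0.07). However, the number that rose ran between 0 and 3, as did the number that fell, across the 8 settings. miR-145a-3p was not detected on any array.

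Markers of other cell types were read in the same arrays, where 39.7% of all tested miRNAs were called higher and 27.7% lower. All 7 leukocyte miRNAs rose, with a summed scaled signal of 7.80 to 8.80 in UUO and 1.87 to 2.11 in Sham arrays. All 5 fibroblast miRNAs also rose, with 13.2 to 15.8 in UUO and 3.73 to 4.19 in Sham. Of these, miR-511-3p (leukocyte) and miR-214-5p (fibroblast) were detected on only 4 arrays and lay at the floor in Sham. The limit of at least 4 arrays can pass such miRNAs through UUO alone, so their rise is not separate from the filter. The myeloid miR-223-3p rose by 2.30 ± 0.07 and the hematopoietic miR-142a-3p by 2.28 ± 0.07, while the mesenchymal miR-214-3p rose by 2.42 ± 0.06 and miR-199a-5p by 1.95 ± 0.07 (log2 ± SE). Over the 8 settings 6 to 7 leukocyte and all 5 fibroblast miRNAs rose. Of the 7 tubule miRNAs 6 fell and 1 was not called, with 33.3 to 39.7 in UUO and 60.8 to 64.6 in Sham. miR-30e-5p fell by 1.24 ± 0.07 and miR-192-5p by 1.14 ± 0.11 on the log2 scale. Over the settings 4 to 6 tubule miRNAs fell and 0 to 1 rose. The 2 endothelial miRNAs, miR-126a-3p and miR-126a-5p, are also counted among the vascular and smooth muscle miRNAs above. Of these 2, miR-126a-5p fell and miR-126a-3p was not called, with 10.67 to 12.39 in UUO and 12.49 to 13.24 in Sham. Their direction turned with the setting, with 0 to 2 lower, 0 to 1 higher and a median of −0.50 to 0.15. The red blood cell miRNAs summed to 2.11 to 3.84 in UUO and 3.71 to 5.46 in Sham, and 2 of 3 fell, miR-451a by 0.84 ± 0.20 and miR-144-3p by 0.81 ± 0.24, with 1 to 3 lower over the settings. None of the lists had a summed signal of 0 in either group. The part of cell makeup in the values of miR-221 and miR-222 was not tested.

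**Figure D5:**
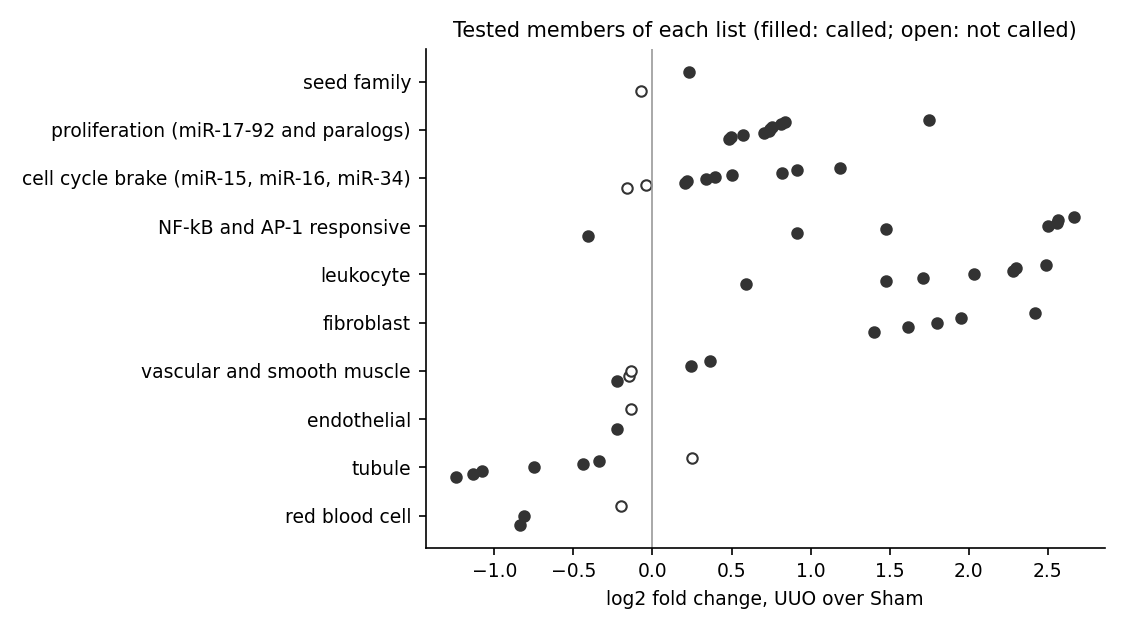
Log2 fold change (UUO over Sham) of the tested members of each list, with filled points called and open points not called. The tested seed family members, miR-222-3p at 0.23 and miR-221-3p at −0.07, lie close to 0, while all leukocyte and fibroblast points lie above 0.5 and all but 1 tubule point lie below 0.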

How the data were processed

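Spot intensity was deposited as made with Agilent Feature Extraction 10.7.3.1, per the file headers and the submitters' processing notes: the spot mean minus a spatial background surface, with no normalization between arrays, and probe positions on mm9. The deposited series table holds a ratio per miRNA, equal to the files' total intensity times 1 factor per array and divided by the row's median. How that factor was set is not stated. Outlier spots (2.64 to 2.95% per array) were left out, spots averaged per probe, arrays divided by the 75th percentile over the 623 probes detected (over 50% of spots well above background) on all 8 arrays, raised to a floor (log2 −4.89) and log2 taken. A miRNA was read by its brightest probe, and the 408 detected on at least 4 arrays were fitted with limma 3.58.1 in R 4.3.3 (Benjamini-Hochberg). Permutation used scipy 1.17.1. The fit was tested on simulated data. Precision is limited by the 4 arrays per group.

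The members and lists were chosen with earlier results of these data known. Named miRNAs are the members, the 5 nearest in pattern, up to 3 called per list and 3 on chromosome X. The brightness windows and neighbouring pairs were chosen after the values were seen. Labels share the numbers 1, 2 and 3 between groups but do not say that they pair samples.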

Additional observations from a re-analysis of the deposited data

How the results depend on the processing

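None of the 10 groups of 4 arrays tested for a value apart (Dixon's test) passed its limit. With total intensity, the deposited ratios and quantile normalization, miR-221-3p was called lower (−0.42, −0.38 and −0.14, log2). It was above 0 with the percentile over all probes (0.062), without scaling (0.12) and with the dmr controls (0.26). miR-222-3p was below 0 with quantile normalization (−0.21, called), total intensity (−0.10) and the ratio table (−0.062). It was not called with normexp (0.12, adjusted p = 0.0516 by limma) or with no filter (0.23, adjusted p = 0.101), where 1881 miRNAs were tested. The shift between the pair was −0.079 with quantile normalization and 0.19 with normexp. Leaving out 1 array at a time gave −0.10 to −0.04 for miR-221-3p (never called), 0.19 to 0.27 for miR-222-3p (called 8 of 8 times), 0.28 to 0.33 for the shift (exact p = 0.0571 each time, the smallest possible) and 256 to 283 called miRNAs. Direction and side of the threshold were kept in 17 alternatives for miR-221-3p, 18 for miR-222-3p and 11 for the shift. The 17 and 18 include the 8 that leave out 1 array, and the 11 include normexp. Some keep them by construction, because a factor per array cancels from the shift or because the values are unchanged. All 23 alternatives kept the number of calls within 1.5 times. The cause of these differences was not tested.

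Calls higher and lower were 162 and 113 with the scaling used, 194 and 84 with the percentile over all probes, 212 and 77 without scaling, 127 and 162 with quantile normalization, 244 and 51 with the dmr controls, 122 and 156 with normexp, 109 and 217 with total intensity, and 118 and 207 with the ratio table.

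The deviations of samples of the same number correlated at r = −0.00, 0.12 and −0.30 over the 408 miRNAs. Those of samples with different numbers correlated at −0.35 to 0.36. So few values cannot settle whether the samples were paired. Samples numbered 1, 2 and 3 also shared an array column of the slide between the groups. With the number as a replicate block on 6 arrays, miR-222-3p was at 0.28, miR-221-3p at −0.03, the shift at 0.31 (exact p = 0.25, the smallest possible with 3 pairs) and 226 miRNAs were called.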
